A study of Rattus norvegicus with 6 samples.

Results

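The DQ6 block comprised the piRNA probes whose systematic name begins with DQ6, taken from the spots of each array that are not controls. It held 15191 probes, which is 38.2% of the 39727 piRNA probes and part of 39886 probes in all apart from controls. The remaining 24536 piRNA probes carried identifiers that begin with DQ7 and served as the comparison. Membership rested on the identifier alone and not on any measured value. Of the DQ6 identifiers, 15173 ran from DQ601959 to DQ628522, and 18 lay apart, between DQ684789 and DQ698066.

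Testis RNA was measured in male Sprague-Dawley rats of 11 weeks of age. The DEHP group (3 rats) received di(2-ethylhexyl) phthalate, a plasticiser used in flexible plastics, by gavage in corn oil at 1000 mg/kg per day for 28 days. The control group (3 rats) received corn oil alone for 28 days. Each rat gave 1 one-colour array. The design text pairs the treatments with the groups in the reverse order, and directions below follow the labels of the samples instead. Whole testes were used, and in bulk tissue fewer cells of a type and less RNA per cell cannot be told apart. Of 19 testis marker genes looked for, 1 had a probe, Lhcgr (the luteinizing hormone receptor of Leydig cells), which was well above background on 6 of 6 arrays. The germ cell and Sertoli cell markers looked for were not among the probes that could be named.

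piRNAs are short RNAs of the germ line that are bound by Piwi proteins, a branch of the Argonaute family. They guide the silencing of transposons and other transcripts, and in the rodent testis the most abundant ones appear during meiosis and come from long precursor transcripts of genomic clusters, each of which is cut into many piRNAs. The arrays were hybridised with cRNA made from total RNA, and whether the labelling captured short piRNAs, their longer precursors or both is not stated in the sources. A level below is therefore the signal of a probe, on a log2 scale relative to the 75th percentile of its array, and no function is assigned to a single probe.

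Going by the scan identifiers that the headers give, control 1 shared slide 1 with the 3 DEHP arrays, and controls 2 and 3 were on slide 2. Control 1 also had the fewest probes well above background (16821 of 39886, against 21395 to 23874 on the other arrays). The lowest level at which it still had a probe well above background was -1.39, against -2.32 to -1.98 on the other 5 arrays. Results that rest on dim probes or on the slide 2 controls are given with that in view. The part of the slide in them was not tested apart from the values given.

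Detection was assessed with the scanner software's flag for a spot well above background. In the DEHP arrays 9589, 10092 and 10142 of the DQ6 probes carried the flag, and in the control arrays 7149, 10057 and 9038 did. The counts averaged 9941 ± 306 in DEHP testes and 8748 ± 1476 in control testes (SD, n = 3 each). The groups overlapped, and control 1 was the lowest array. As a share of the block these were 63.1%, 66.4% and 66.8% in DEHP testes and 47.1%, 66.2% and 59.5% in control testes. On every array the DQ6 share was above the DQ7 share. The gap was 11.6, 11.8 and 11.2 percentage points in DEHP testes and 8.01, 10.5 and 9.54 percentage points in control testes, and the groups did not overlap. Against control 1 alone, on the same slide, the gap in DEHP testes was wider by 3.51 percentage points. No p-value is given for values summed over the block, here or below, because the block was singled out with results of these arrays known.

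**Figure D1:**
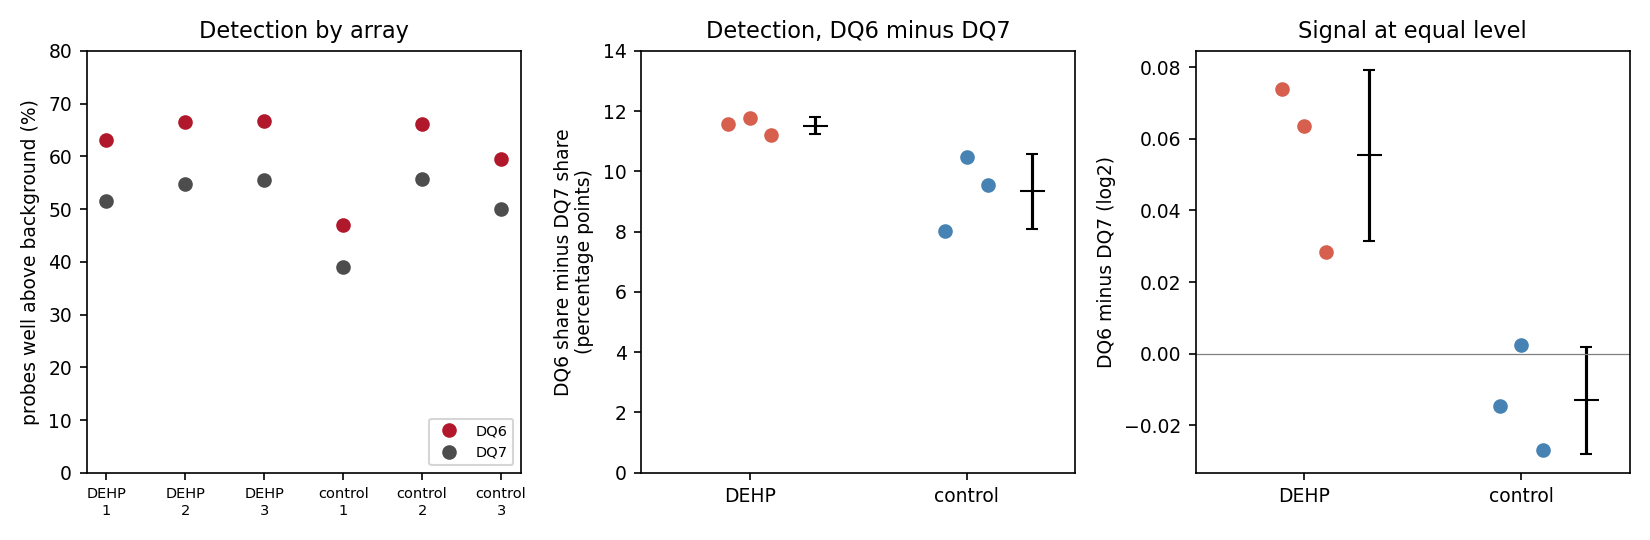
Detection and level of DQ6 and DQ7 probes by array. Left, percent of each block's probes well above background on each array. Middle, the DQ6 share minus the DQ7 share in percentage points. Right, the mean log2 signal of DQ6 minus DQ7 probes, averaged over 10 bins of equal level. Points are arrays, and bars give the mean and SD of 3 arrays. DQ6 lies above DQ7 in detection on all 6 arrays, and in the middle and right panels the 3 DEHP arrays lie above the 3 control arrays.

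A probe counted as detected when 3 or more of the 6 arrays, of either group, flagged it. By this rule 9861 of 15191 DQ6 probes (64.9%) were detected, against 13154 of 24536 DQ7 probes (53.6%). On all 6 arrays 7104 DQ6 probes were well above background, and on none 4272. The 556 probes just inside the rule, on 3 arrays, had a median level of -2.07, and the 421 just outside it, on 2 arrays, had a median level of -2.28. Of the detected DQ6 probes, 9844 had a value on every array and were tested, and 17 did not. The first identifier of the block, DQ601959, was well above background on no array. The last, DQ698066, was well above background on 6 arrays at a mean level of -0.11.

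Over all members with a value the median level was -1.31 in DQ6 and -1.90 in DQ7. Among tested probes the medians lay close together, at -0.30 in DQ6 and -0.33 in DQ7. The bright end differed more: 447 DQ6 probes (2.94%) exceeded a level of 5, against 432 DQ7 probes (1.76%). The brightest DQ6 probe, DQ614617, had a mean level of 11.17, and 10% of tested DQ6 probes exceeded 3.04.

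Detection varied along the identifiers. In 27 stretches of 1000 identifier numbers, each holding 314 to 661 probes, the detected share of DQ6 probes ranged between 52.1% (DQ622) and 81.8% (DQ615). The SD over these stretches was 6.09 percentage points. In 41 DQ7 stretches the share ranged between 49.6% and 58.2%, with an SD of 2.26 percentage points. The DQ615 stretch also had the highest median level of the block, -0.36, and the DQ622 stretch the lowest, -1.98. The median DEHP minus control difference ranged between 0.0035 and 0.15 on the log2 scale over the DQ6 stretches. Over the DQ7 stretches it ranged between -0.026 and 0.094, so the stretches of both blocks overlapped. Grouped by the first 4 characters, the DQ60, DQ61 and DQ62 probes were detected at 66.2%, 66.7% and 61.7%, with median differences of 0.07, 0.09 and 0.08. Of the 18 probes that lay apart, 12 were tested, 11 of those had a positive difference (58.3% of all tested DQ6 probes did) and 1 passed the test (10.7% of all tested probes did).

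**Figure D2:**
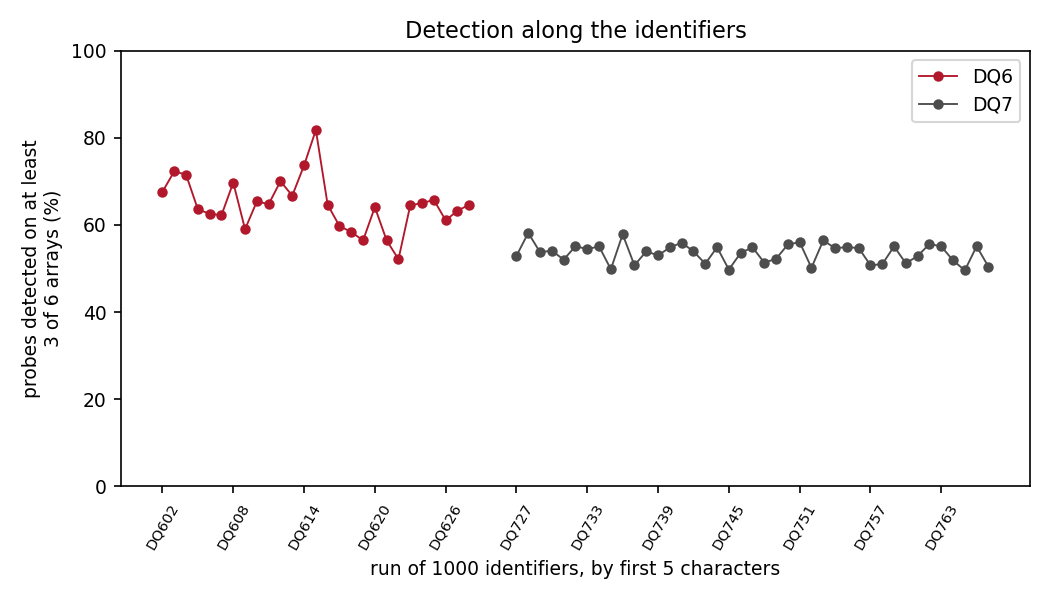
Percent of probes detected on at least 3 of 6 arrays in each stretch of 1000 identifier numbers, for DQ6 and DQ7. Each point is 1 stretch, and stretches of under 100 probes are left out. DQ6 stretches spread between 52.1% and 81.8%, with the peak at DQ615, and DQ7 stretches stay between 49.6% and 58.2%.

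Probes with consecutive DQ6 identifiers had related levels. Over 9637 pairs of consecutive numbers the mean levels correlated at r = 0.31. At a distance of 2 numbers r was 0.17, at 3 it was 0.10, at 5 it was 0.07 and at 1000 it was 0.0013. In DQ7, consecutive numbers gave r = 0.02 over 14973 pairs. The second probe of a consecutive DQ6 pair was detected in 72.6% of pairs when the first was, and in 50.8% when the first was not. The same shares in DQ7 were 54.4% and 53.1%. All pairs come from the same 6 arrays, and the correlations are given as descriptions.

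The DEHP minus control differences of consecutive DQ6 probes were related as well. Over 4602 tested pairs r was 0.31, and it was still 0.31 after the dependence of the difference on level was removed. At a distance of 2 numbers r was 0.16, and at 5 it was 0.02. In DQ7 the consecutive pairs gave r = 0.02 over 4336 pairs. Both probes passed the test in 108 consecutive DQ6 pairs, and in 102 of them (94.4%) the 2 differences had the same sign. In DQ7 that held for 28 of 59 such pairs. Variation within a group ran along the identifiers too: deviations of DEHP 1 from its group mean correlated at r = 0.25 between consecutive DQ6 probes, and those of control 1 at r = 0.15. Consecutive identifiers were a median of 155 rows apart on the array, and 6 of 9672 pairs sat on touching positions. Spots beside each other on the array had r = 0.0055 for level and 0.02 for the difference. The sequences and genome positions of the probes were not used here, so whether consecutive identifiers overlap in sequence or share a precursor was not tested.

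**Figure D3:**
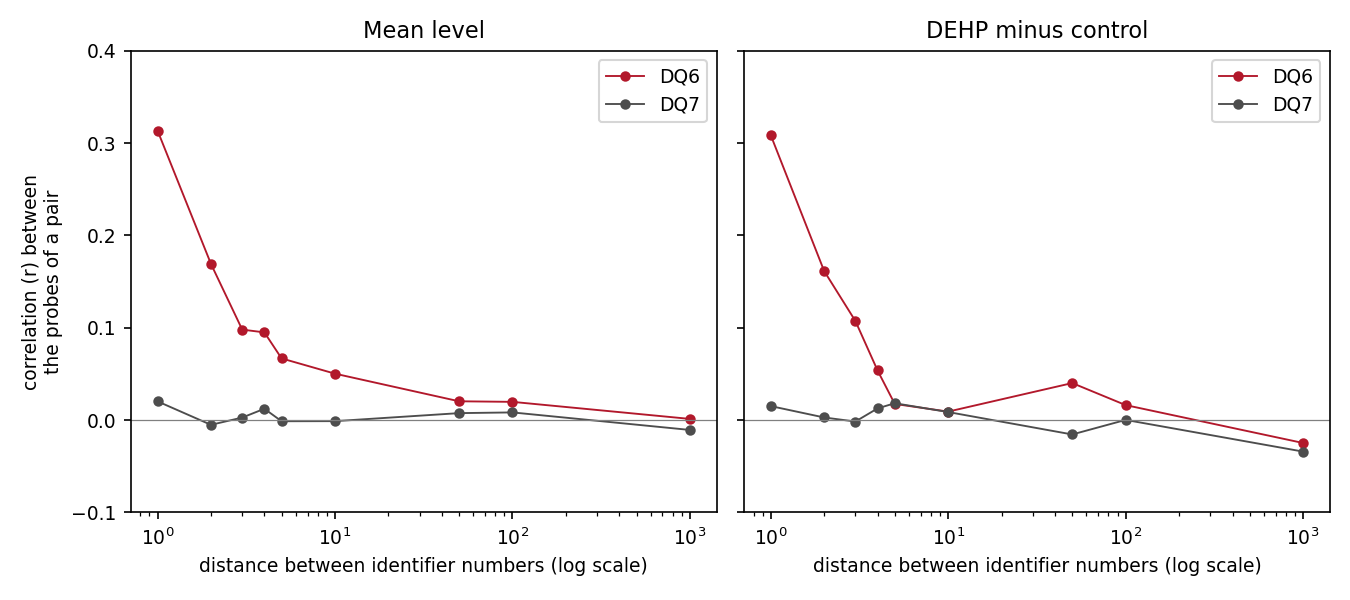
Correlation between the probes of a pair against the distance between their identifier numbers (log scale), for mean level (left) and for the DEHP minus control difference (right). Each point is the Pearson r over all pairs of a block at that distance. DQ6 reaches r = 0.31 in both panels at a distance of 1 and falls to 0.07 (level) and 0.02 (difference) at 5, while DQ7 stays at 0.02 at a distance of 1.

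Bright DQ6 probes formed runs of identifiers. The tested DQ6 probes were divided into 10 bins of equal size by mean level, and DQ7 probes were placed in the same bins. In the highest bin 169 of 985 DQ6 probes (17.2%) belonged to 49 runs of at least 3 consecutive numbers, against 3 of 1063 DQ7 probes. The longest run held 9 probes, DQ607116 to DQ607124, with mean levels of 6.55 to 7.36. Averaged over the run, the levels were 6.79, 6.60 and 6.84 in DEHP testes and 7.41, 7.17 and 7.66 in control testes. All 9 differences were negative, between -0.81 and -0.52, and 5 of the 9 probes passed the test. With quantile normalization, with normexp background correction, in the authors' value table, with no filter or without control 1, 1 of the 9 passed, and 0 did without centring, with the slide as a blocking term, or without control 3 or any 1 of the DEHP arrays. The median difference of the run was -0.70, and it was -0.33 with quantile normalization and -0.32 in the authors' table. Another run, DQ614588 to DQ614594, had levels of 5.81 to 6.94 and averaged 6.72, 6.83 and 6.68 in DEHP testes and 6.60, 6.69 and 6.34 in control testes. Its 7 differences lay between 0.11 and 0.25 and none passed the test. With each array centred on its median, 4 of these 7 differences changed sign. The run DQ604302 to DQ604306 had levels of 7.19 to 7.88 and no probe that passed the test. Which runs to describe was settled after the values were seen.

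Runs also appeared among the probes that passed the test, though most such probes lay outside them. Of 457 higher DQ6 probes, 22 (4.81%) lay in 7 runs of at least 3 consecutive numbers. Of 473 lower DQ6 probes, 22 (4.65%) lay in 6 such runs. In DQ7, 3 of 535 higher probes (0.561%) lay in 1 run and 7 of 966 lower probes (0.725%) in 2. The 5 probes DQ614777 to DQ614781 fell together: their mean levels averaged 0.48, 0.28 and 0.50 in DEHP testes and 1.31, 1.16 and 1.29 in control testes. The differences ran between -1.14 and -0.68, with adjusted p-values of 0.00495 to 0.0321 by limma, each for a single probe and not for the run. DQ604926 to DQ604929 fell by 0.78 to 1.02 on the log2 scale, and averaged 1.57, 1.58 and 1.80 in DEHP testes and 2.25, 2.60 and 2.74 in control testes. DQ610472 to DQ610475 fell by 0.62 to 1.20, and averaged 4.03, 3.94 and 4.17 in DEHP testes and 4.94, 4.72 and 4.97 in control testes. The 4 probes DQ611918 to DQ611921 rose, with differences of 0.52 to 0.81. They averaged -0.62, -0.64 and -0.65 in DEHP testes and -1.15, -1.27 and -1.41 in control testes. The next identifier, DQ611922, is among the brightest of the block and fell. The 3 probes DQ603085 to DQ603087 rose by 0.48 to 0.86, and DQ604819 to DQ604821 rose by 0.63 to 0.68. Wherever they were tested, the probes of these 6 runs kept the sign of every difference under the other settings, but not the calls. Another filter, the replicate number as a block or eBayes without trend cannot change a probe's difference. The slide as a block gives the same differences as slide 1 alone. These runs were picked among calls on the same arrays, so the kept signs are a description only. With the slide as a blocking term none of these probes passed. Without control 3 or any 1 DEHP array the 3 falling runs kept 1 or 2 calls each, and the rising runs none apart from 1 of DQ611918 to DQ611921 without DEHP 3. Without centring 1 call was left from DQ614777, 1 from DQ610472 and 2 from DQ603085. With normexp the median of DQ611918 to DQ611921 was 0.16, against 0.61 without that correction, and 0 of its 4 probes passed. Quantile normalization, the authors' table, median centring and the lack of a filter each left 1 of these 4. The median from DQ614777 was -0.44 with normexp, against -0.76 without it, and that from DQ610472 was -0.46 with quantile normalization, against -0.76 without it. Against control 1 alone, on slide 1, the differences lay between -1.24 and -0.39 in the run from DQ614777, between -0.77 and -0.49 in that from DQ604926 and between -1.14 and -0.71 in that from DQ610472. They lay between 0.36 and 0.63 in the run from DQ611918, between 0.42 and 0.52 in that from DQ603085 and between 0.54 and 0.58 in that from DQ604819. With 1 control array these are values without a check on the spread between control rats.

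The comparison of DEHP with control testes used limma on all 23090 tested probes of the array, with Benjamini-Hochberg adjustment over all of them and a threshold of 0.05. Of 9844 tested DQ6 probes, 930 passed (9.45%), against 10.7% of all tested probes. Among them 457 were higher in DEHP testes (4.64%, against 4.44% of all tested probes) and 473 were lower (4.80%, against 6.26%). In DQ7 4.07% were higher and 7.35% lower. Of the 457 higher DQ6 probes, 52 were flagged as detected in DEHP testes alone. Of the 473 lower ones, 2 were detected in control testes alone. Those probes met the detection rule only through the group where they were bright, so their part in these counts is a description only. At least 2-fold differences were reached by 73 DQ6 probes that were higher (0.742%, against 0.741%) and 115 that were lower (1.17%, against 1.69%). The groups did not overlap for 3655 DQ6 probes (37.1%, against 37.5%). The median difference over tested DQ6 probes was 0.08, against 0.05 over all tested probes and 0.03 over DQ7. The shares in DQ6 lie near those of the whole array except for the smaller share that was lower.

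The number of calls changed with a slide term in the fit and with single arrays left out. With the slide as a blocking term, 3 DQ6 probes passed (0 higher and 3 lower, 0.0303% of all tested probes), and 1603 had an unadjusted p under 0.05. None of the 930 calls passed in that fit, though all 930 differences kept their sign. A difference in that fit is the DEHP mean minus control 1, the same value as on slide 1 alone. Within slide 1 alone, where the fit lends control 1, the only control, the spread of the 3 DEHP arrays, 763 DQ6 probes passed (387 higher and 376 lower, against 8.82% of all tested probes), and 404 of the 930 were among them. Without DEHP 2 the count was 89 (1.19% of all tested probes passed), without DEHP 1 it was 163 (2.07%), without DEHP 3 223 (2.93%) and without control 3 186 (2.36%). Without control 2 it was 1799 (19.5%), and without control 1 it was 988 (11.2%). The balance of higher and lower calls depended on the centring. It was 1147 higher and 368 lower when the 75th percentile was taken over the probes that every array detected (15.8% of all tested probes passed). It was 131 and 975 with median centring (13.6% of all) and 136 and 65 with none (2.46%). The median difference of all tested probes was 0.19, -0.15 and 0.31 under these 3 settings. It was -0.0039 with normexp background correction, under which 209 DQ6 probes were higher and 333 lower (6.81% of all passed). It was -0.03 among probes detected on all 6 arrays, with 291 and 501 (13% of all). In each of these 5 settings the DQ6 median lay above that of all tested probes, a set that includes the DQ6 probes. The 3 centrings among them shift all probes alike and could not change that order. The DQ6 median was 0.0083 with normexp and -0.0041 among probes detected on all 6 arrays.

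The difference ran with level in both blocks. In the dimmest of the 10 bins the median difference was 0.42 in DQ6 and 0.38 in DQ7, and in the brightest it was -0.21 in DQ6 and -0.35 in DQ7. In all 10 bins the DQ6 median lay above the DQ7 median, by 0.039 to 0.14 on the log2 scale. The share of probes that were lower in DEHP testes was smaller in DQ6 in all 10 bins, by 0.15 to 11.2 percentage points. In the dimmest bin this rested on 3 of 985 DQ6 probes against 6 of 1309 DQ7 probes. In the brightest bin, 136 of 985 DQ6 probes (13.8%) were lower, against 266 of 1063 DQ7 probes (25.0%). The DQ6 probes that were higher had a median level of -0.84, and 255 of 457 were well above background on all 6 arrays. Those that were lower had a median level of 1.74, and 459 of 473 were well above background on all 6. None of the 985 DQ6 probes in the dimmest bin was well above background on all arrays. Such a probe could pass the filter through the arrays where it was brighter, and control 1 detected the fewest, so the counts in the dim bins are a description only.

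**Figure D4:**
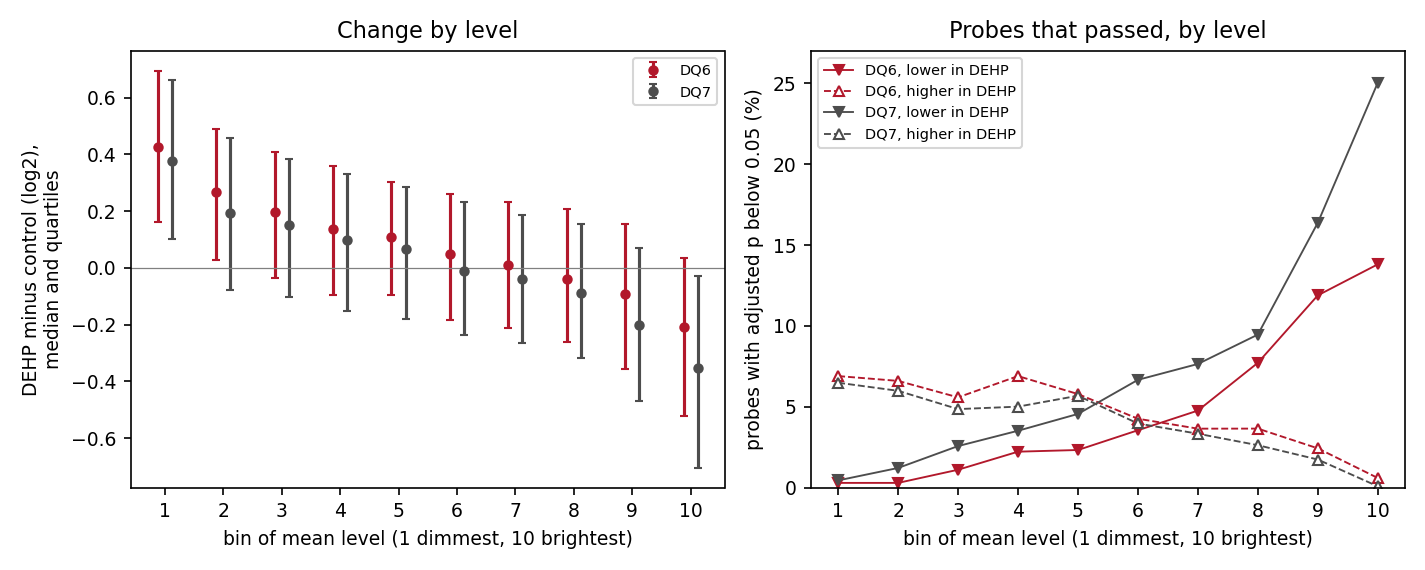
DEHP minus control by level. Left, median and quartiles of the log2 difference of tested probes in 10 bins of mean level. Right, percent of probes in each bin with an adjusted p below 0.05, higher or lower in DEHP testes. The median runs between 0.42 (dimmest) and -0.21 (brightest) in DQ6 and between 0.38 and -0.35 in DQ7, and 13.8% of DQ6 probes against 25.0% of DQ7 probes were lower in the brightest bin. The zero line depends on the centring, and a shift of a whole array leaves the gap between the blocks as it is.

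On each array DQ6 probes were set against DQ7 probes in the same bins of mean level over the 6 arrays. No centring of an array can move that gap. Relative to DQ7, DQ6 probes were slightly brighter in DEHP testes than in control testes. In the highest bin the mean level was 5.38 in DQ6 and 5.17 in DQ7, so the gap of a single array also holds that inequality. The mean gap over the 10 bins was 0.074, 0.064 and 0.028 in DEHP testes and -0.015, 0.0025 and -0.027 in control testes, and the groups did not overlap. The gaps averaged 0.055 ± 0.024 in DEHP testes and -0.013 ± 0.015 in control testes (SD, n = 3 each), a difference of 0.068. Control 1, on slide 1, lay between both slide 2 controls, and the difference against it alone was 0.070. Over the alternatives run the difference kept its sign, between 0.039 with normexp and 0.082 without DEHP 3. The other centrings among them could not move it. Quantile normalization (0.069) and the authors' table (0.070) are not separate checks. Without the highest level bin the difference was 0.062. The median level of tested DQ6 probes, which does move with the centring, was -0.25, -0.25 and -0.27 in DEHP testes and -0.33, -0.27 and -0.32 in control testes. That difference was 0.05, and it was -0.15 with median centring and -0.0016 over probes detected on all 6 arrays. In linear signal, DQ6 probes took 50.4%, 51.1% and 50.2% of the piRNA signal of the DEHP arrays and 46.9%, 46.9% and 46.0% of that of the control arrays. These groups did not overlap either.

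The brightest DQ6 probes were low in DEHP testes relative to the rest of the array. In the highest bin the mean level was 5.31, 5.19 and 5.28 in DEHP testes and 5.55, 5.31 and 5.66 in control testes. The difference was -0.25, and it was 0.0060 without centring, 0.07 with quantile normalization and 0.08 in the authors' value table. In DQ7 the same bin averaged 5.03, 4.86 and 5.05 in DEHP testes and 5.41, 5.12 and 5.53 in control testes. The 10 brightest DQ6 probes took 11.7%, 10.6% and 10.7% of the DQ6 signal in DEHP testes and 14.4%, 13.0% and 14.6% in control testes. The 100 brightest took 60.8%, 58.9% and 60.4% in DEHP testes and 64.7%, 62.5% and 64.3% in control testes. On both measures the groups did not overlap.

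The 10 DQ6 probes of highest level were DQ614617, DQ611922, DQ620624, DQ615211, DQ610983, DQ609880, DQ609881, DQ605355, DQ610985 and DQ607874, with mean levels of 10.73 to 11.17. DQ609880 and DQ609881 have consecutive numbers. The mean over the 10 probes was 10.73, 10.41 and 10.57 in DEHP testes and 11.39, 10.97 and 11.52 in control testes. All 10 differences were negative, between -0.98 and -0.38, with 4 probes past the test. Under quantile normalization and in the authors' value table DQ614617, DQ620624, DQ615211 and DQ610983 had positive differences. DQ615211 passed there as higher in DEHP testes, at 0.31 with quantile normalization (adjusted p = 0.0447 by limma) and 0.32 in the authors' table (adjusted p = 0.0459 by limma). DQ611922 had levels of 10.69, 10.33 and 10.54 in DEHP testes, against 11.47, 11.22 and 11.80 in control testes. The groups did not overlap, and DQ611922 was 1.97-fold lower in DEHP testes (log2 difference -0.98, SE 0.23, adjusted p = 0.0289 by limma). DQ609880, DQ605355 and DQ607874 also passed, at 1.91-fold, 1.71-fold and 1.83-fold lower. DQ614617, the brightest, had levels of 10.99, 10.76 and 10.95 in DEHP testes, against 11.67, 10.95 and 11.68 in control testes. Control 2 reached the level of the DEHP arrays, and the difference of -0.53 did not pass (adjusted p = 0.169 by limma).

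The largest increases and decreases were taken among probes that passed the test, were flagged as well above background 6 times out of 6 and did not overlap between groups. The 10 decreases were the larger, 3.27-fold to 5.86-fold, and the 10 increases were 2.00-fold to 3.02-fold. That contrast holds for the listed probes only, since the rule on all 6 arrays kept 255 of 457 higher calls and 459 of 473 lower ones. Over all tested DQ6 probes the differences ran between -2.66 (DQ607852) and 2.49 (DQ613172) on the log2 scale, both in probes detected in 1 group alone. With the slide as a blocking term 0 of these 20 probes passed, and all 20 kept their sign. Against control 1 alone the decreases lay between -1.89 and -0.52 and the increases between 0.31 and 1.30 on the log2 scale, with no control replicate there. With normexp the decreases lay between -1.81 and -0.80 and the increases between 0.35 and 1.61, and DQ608392, DQ611418, DQ603005 and DQ622412 no longer passed.

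DQ614103 fell most among these probes. Its levels were -0.17, -0.66 and -0.08 in DEHP testes, against 1.58, 2.25 and 2.91 in control testes. It was 5.86-fold lower in DEHP testes (log2 difference -2.55, SE 0.30, adjusted p = 0.00441 by limma), and the difference against control 1 alone was -1.89. DQ616819, the brightest of the 10, had levels of 4.69, 4.49 and 5.13 in DEHP testes, against 6.30, 6.58 and 7.06 in control testes, and was 3.67-fold lower (adjusted p = 0.00495 by limma). DQ627828 had levels of 3.01, 2.94 and 3.24 in DEHP testes, against 4.49, 4.76 and 5.62 in control testes, a 3.71-fold lower signal (adjusted p = 0.00586 by limma). DQ627312, of the same stretch of identifiers, had levels of 3.67, 3.38 and 3.36 in DEHP testes, against 4.68, 5.53 and 5.88 in control testes. In these 4 probes the DEHP arrays lay close together, control 1 was the lowest control array, and it still lay above every DEHP array. DQ626835, DQ613202, DQ611821 and DQ628100 showed the same order. DQ608392 had levels of 2.73, 2.96 and 3.53 in DEHP testes, against 3.59, 5.38 and 6.03 in control testes. Its control 1 value lay next to the DEHP arrays, and the difference against control 1 alone was -0.52. DQ611418 had levels of -1.43, -1.13 and -1.41 in DEHP testes, against -0.25, 1.99 and -0.18 in control testes. All 3 control arrays lay above the DEHP arrays, control 2 by the most, and the difference of -1.84 was -1.11 without control 2.

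Among the 10 increases DQ625003 rose most, with levels of 3.50, 4.58 and 4.83 in DEHP testes, against 3.17, 2.18 and 2.76 in control testes. It was 3.02-fold higher in DEHP testes (log2 difference 1.60, SE 0.35, adjusted p = 0.0243 by limma), and DEHP 1 and control 1 differed little. The difference against control 1 alone was 1.13. DQ612411 had levels of 1.27, 2.34 and 2.62 in DEHP testes, against 0.89, 0.02 and 0.91 in control testes, with DEHP 1 again nearest to the control arrays. DQ623665 and DQ617979 were further apart. DQ617979 had levels of 0.01, 0.39 and 0.47 in DEHP testes, against -0.86, -0.97 and -1.01 in control testes, and was 2.36-fold higher (adjusted p = 0.00480 by limma). The difference against control 1 alone was 1.15. DQ623665 was 2.69-fold higher (adjusted p = 0.0103 by limma). The consecutive identifiers DQ613523 and DQ613524 rose alike. DQ613523 had levels of 1.48, 1.26 and 1.28 in DEHP testes, against 0.47, 0.47 and 0.08 in control testes. DQ613524 had levels of 1.57, 1.36 and 1.27 in DEHP testes, against 0.42, 0.40 and -0.01 in control testes. Against control 1 alone the differences were 0.86 for DQ613523 and 0.98 for DQ613524. DQ603005 had levels of -0.27, 0.18 and 0.05 in DEHP testes, against -0.32, -1.51 and -1.69 in control testes. There control 1 lay just below DEHP 1, and the difference against control 1 alone was 0.31. DQ625628, DQ622412 and DQ617308 completed the 10, at 2.14-fold, 2.12-fold and 2.02-fold higher.

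**Figure D5:**
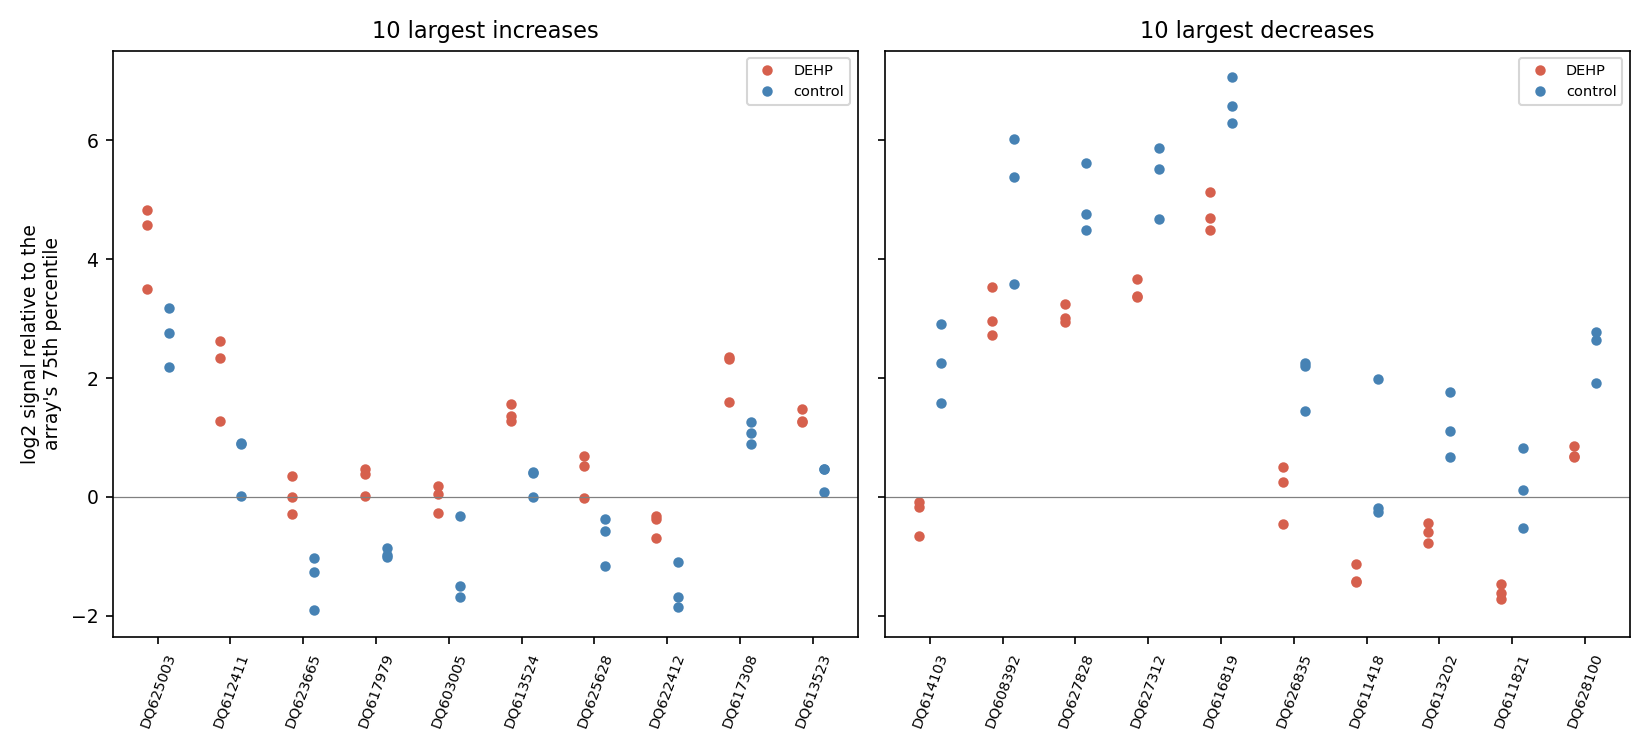
Log2 signal relative to the 75th percentile of the array for the 10 largest increases (left) and the 10 largest decreases (right) among DQ6 probes that passed the test, did not overlap between groups and were well above background on each of 6 arrays. Each point is 1 array, with the 3 DEHP arrays left of the 3 control arrays. DQ614103 shows the widest gap, between -0.66 and -0.08 in DEHP testes and between 1.58 and 2.91 in control testes.

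Some DQ6 probes were well above background on all arrays of 1 group and on none of the other. There were 175 detected in DEHP testes alone (1.15% of 15191), against 210 DQ7 probes (0.856% of 24536). In control testes alone 2 DQ6 probes and 5 DQ7 probes were detected. For such a probe the fold is a bound: the mean of the brighter group over the mean, in the dimmer group, of the higher of each array's lowest detected level and the probe's own level. Such a probe passed the filter only through the group where it was bright, so no p-value is given for it. The counts of passing DQ6 probes above still include 52 detected in DEHP testes alone and 2 detected in control testes alone. Of the 175 bounds, 166 were over 1 and 1 reached 2-fold. For DQ615305 the bound was the largest, at least 2.53-fold higher, with measured levels of -0.65, -0.48 and -0.70 in DEHP testes, against -1.48, -2.37 and -2.79 in control testes. DQ621649 was at least 1.97-fold higher. DQ626420, at least 1.78-fold higher, had the closest replicates of the 5 largest bounds: -1.04, -1.16 and -1.17 in DEHP testes, against -2.68, -2.77 and -2.55 in control testes. DQ623003 and DQ627137 were at least 1.69-fold and 1.60-fold higher. Of the probes detected in control testes alone, DQ607852 was at least 2.91-fold lower in DEHP testes, with measured levels of -2.28, -4.28 and -3.16 in DEHP testes, against -0.69, -0.63 and -0.42 in control testes. DQ612194 was at least 2.41-fold lower in DEHP testes. Against control 1 alone the counts were 2166 probes in DEHP testes only and 9 in control 1 only. Without control 1 they were 180 and 66, and without control 2 the count in DEHP testes only was 642.

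The spread between replicates was close in both blocks. The pooled SD within groups had a median of 0.202 in DQ6 and 0.209 in DQ7 over tested probes, and 10% of DQ6 probes exceeded 0.39. In all 10 level bins the DQ6 median SD lay below that of DQ7, by at most 0.014. Averaged over the bins the gap was -0.0070, and it was 0.0018 without centring and 0.00020 with normexp, so its sign depended on the processing. Among bright DQ6 probes the spread differed widely. DQ612583 had levels of 3.44, 3.35 and 3.41 in DEHP testes, against 3.39, 3.44 and 3.50 in control testes. DQ616996 had 5.02, 4.98 and 5.06 in DEHP testes, against 5.49, 5.61 and 5.56 in control testes, a pooled SD of 0.050 and a 1.45-fold lower signal (adjusted p = 0.0491 by limma). DQ608196, DQ610208 and DQ608007 were as tight, with pooled SDs of 0.051 to 0.053, and did not pass.

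At the other end, DQ602216 had levels of 2.46, 5.92 and 7.53 in DEHP testes, against 6.00, 9.69 and 3.49 in control testes, a pooled SD of 2.87. DQ616273 ran the other way on the same arrays, with 8.00, 5.69 and 4.96 in DEHP testes, against 7.13, 3.46 and 8.00 in control testes. In DQ603069 the levels were 4.47, 5.55 and 6.16 in DEHP testes, against 5.83, 7.81 and 5.01 in control testes. DQ602396 and DQ614626, like DQ602216 and DQ603069, had their lowest value in DEHP 1. In DQ602216, DQ603069 and DQ614626 the highest value of 6 was in control 2. The groups overlapped in all 5 of these probes, and none passed the test.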

How the data were processed

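Per the labels' protocols, total RNA of 6 rat testes became Cy3-labelled cRNA for Agilent arrays of 1 colour. Agilent Feature Extraction 11.0.1.1, as named per the file headers, quantified the images. For each spot the deposited scanner output holds a background-subtracted intensity (the processed signal), median intensities of spot and local background, and other values that are flags of 0 or 1, per the file headers. The authors' value table holds deposited log2 values, made by a method that no source states. Its columns correlated with the log2 processed signal of the same arrays at r = 0.992 to 0.999, and every column had a median of 4.42 and a 75th percentile of 6.05. Above the median 99.99% of the sorted positions were equal in all 6 columns within 0.001 (69.2% over the whole table), as quantile normalization would leave them. Its other steps are unknown. It entered as an alternative alone, and its results and those of quantile normalization are not separate checks.

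Titles gave the groups. Controls and the 65 to 86 outlier spots of each array were dropped, none being saturated. Signals were put on the log2 scale and centred on the 75th percentile that each array's non-control probes gave. Probes well above background on at least 3 of 6 arrays and with a value on every array were kept, 23090 in all, and were fitted with limma 3.58.1 (R 4.3.3; lmFit, then eBayes with trend) and Benjamini-Hochberg adjustment over all of them. Tables and figures were made with Python 3.11.15, pandas 2.3.3 and matplotlib 3.10.9. The code was tested on simulated data. The alternatives were other centrings, quantile normalization, normexp (offset 50, on median spot and background intensities, since the files hold no mean intensity), the authors' values, other filters, the replicate number or the slide as a block, slide 1 alone (1 control array), and leaving out each array with the kept probes unchanged. With no depth to count, precision is limited by the number of arrays. The 3 rats of a group are separate animals, per the labels.

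Probes were named by rule: the 10 brightest, the 10 largest increases and decreases, the 5 largest bounds in each direction, the 5 smallest and largest SDs in the highest level bin, and the first and last identifier. The block, the probes and the lists were chosen with earlier results of these data known. The measures of neighbouring identifiers, runs and signal shares, and slide 1 alone, were added after the values were seen. Exact permutation tests had been planned for values summed over the block and are not printed, since its choice was not independent of these data. With 3 against 3 arrays they could not go below 0.1.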

Additional observations from a re-analysis of the deposited data

How the results depend on the processing

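The DQ6 minus DQ7 gap in detection, in percentage points, and the gap at equal level kept their direction under all alternatives run for them. The centrings among these could not move the gap at equal level. The differences of all 930 calls kept their sign wherever they were tested, though none of them passed with the slide as a block. These probes had been selected by their difference on the same arrays. Another filter, the replicate number as a block or eBayes without trend cannot change a probe's difference. The kept signs are therefore a description only. Counts of calls moved most. Without an array they ranged between 89 and 1799 in all, between 11 and 976 higher and between 78 and 823 lower. They came to 1515 (1147 higher) when the 75th percentile was taken over probes that every array detected, to 131 higher and 975 lower with median centring, and to 201 (136 higher and 65 lower) without centring. Normexp gave 542 (209 higher), the filter on all 6 arrays 291 higher, and the slide as a block 3 (0 higher and 3 lower). The replicate number as a block gave 1736 (912 higher and 824 lower). Deviations of same-numbered arrays correlated at 0.13, 0.46 and 0.08. Arrays of different numbers were not compared, so these values cannot decide whether the numbers pair the rats. The numbers were not taken to pair them in the main fit. The replicate number as a block changed no call of a named probe to a miss. Counts of probes detected in DEHP testes only ranged between 180 and 642 without an array, and in control testes only between 2 and 66. Slide 1 alone gave 2166 and 9. The median level difference was -0.15 with median centring and -0.0016 on the all-array filter. The highest-bin difference was 0.0060 without centring, 0.073 with quantile normalization and 0.080 in the authors' table. The SD gap was 0.0018 without centring and 0.00020 with normexp. The causes of these changes were not tested.

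Of 857 values for 48 named probes, 31 changed sign, none of them from a probe that had passed. The 857 include settings that cannot change a difference, and a probe that passes has a difference that is large for its spread. Under quantile normalization and in the authors' table the differences were 0.13 and 0.12 for DQ614617, 0.17 and 0.16 for DQ620624, 0.31 and 0.32 for DQ615211, which passed there as higher, and 0.0064 and 0.011 for DQ610983. DQ608196 had 0.014 with the all-array percentile, 0.13 without centring, 0.16 with quantile normalization and 0.17 in the authors' table. DQ612583 had 0.093, 0.21, 0.21 and 0.22 under these 4, 0.036 with normexp, and 0.015 with the slide as a block and on slide 1 alone. Without an array, DQ602216 ranged between -2.54 and 0.56, being positive at 0.56 without control 2 and 0.33 without DEHP 1. DQ616273 had -0.19 with median centring, -0.91 with the slide as a block and on slide 1 alone, -1.35 without control 2 and -0.87 without DEHP 1, the highest value without an array being 0.92. DQ602396 had -0.15 with median centring and, without control 1, control 3, DEHP 2 or DEHP 3 in turn, -0.0037, -0.28, -0.33 and -0.39, against 0.90 without DEHP 1. The median of the run DQ614588 to DQ614594 was -0.0057 with median centring. That of DQ604302 to DQ604306 was -0.026 with median centring, -0.20 with the slide as a block and on slide 1 alone, and -0.14 without control 2, against 0.39 without control 1. Between DEHP and control testes, 3 arrays a group and the background limit of control 1 leave differences of dim probes least certain.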
